A study of Mus musculus with 4 samples.

Results

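Levels of 7 genes, the potassium channel genes Kcna10, Kcnma1 and Kcnn2, the channel accessory subunits Kcnmb2 and Kcnab1, and the acetylcholine receptor subunits Chrna9 and Chrna10, were described in hair cells of mouse inner ear organoids. The genes were chosen by name among 32289 genes counted, and all 7 were present in every table. The organoids were grown from the embryonic stem cell line Atoh1-nGFP-ESC, in which a nuclear GFP reports Atoh1, a transcription factor needed for hair cells to form. All libraries came from this line, and the labels speak of nuclei in one field and of sorted cells in another. There were 4 single-cell libraries on a 10x Genomics droplet platform, which counts RNA molecules per gene as unique molecular identifiers (UMIs): day 16 in culture, day 20, day 21 sorted for high GFP signal and day 21 sorted for low GFP signal. Each group was 1 library, so no difference between libraries had a replicate check, no p-value was computed, and every interval covered counting error only.

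Hair cells are the receptor cells of hearing and balance. Potassium channels set their resting voltage and end their receptor potentials, and accessory subunits change how fast these channels close. Brainstem efferent neurons release acetylcholine on them, which opens a calcium-permeable receptor of Chrna9 and Chrna10 subunits. Calcium entering there opens the small-conductance channel encoded by Kcnn2, and the hair cell is inhibited. Kcna10 encodes a Shaker-type voltage-gated channel known from vestibular hair cells. Kcnma1 encodes the pore of the large-conductance calcium-activated channel (BK), Kcnmb2 a BK accessory subunit that can inactivate it, and Kcnab1 a cytoplasmic accessory subunit of Shaker-type channels.

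Hair cells were taken as cells in which 10 marker genes of the hair bundle and synapse (Myo7a, Otof, Lhfpl5, Myo15, Cdh23, Pcdh15, Grxcr1, Loxhd1, Tmc1 and Xirp2) summed to 10 or more UMIs per 10000, with at least 3 of them detected. After filtering, the libraries held 3353 cells at day 16, 4313 at day 20, 3428 in the GFP high sort and 3669 in GFP low, with median depths of 15196, 8833, 28858 and 22168 UMIs. The gate took 152 cells (4.53%) at day 16, 125 (2.9%) at day 20, 2241 (65.4%) in the GFP high sort and 768 (20.9%) in GFP low, and each of its 10 markers was detected in the gated cells of each library. Between 32 and 76 cells a library had scores of 5 to 10, just outside the gate, and 37 to 290 had scores of 10 to 20, just inside. Of the gated cells, 51, 27, 258 and 136 also passed the gate of another cell class, mostly that of neurons, whose 7 markers had a median of 15.6, 9.83, 9.31 and 11.7 UMIs per 10000 over hair cells. Barcodes shared between a pair of libraries numbered 1 to 7.

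Hair cell states were set by 4 genes, each at 2 or more UMIs per 10000 and at least 2 UMIs. Ocm encodes a calcium buffer of some hair cell types, Cib3 a partner of the mechanotransduction channel, and Bmp2 a secreted growth factor. Cells with exactly 1 of these are called Ocm-gated, Cib3-gated or Bmp2-gated, and numbered 170, 973 and 59 in GFP high and 27, 212 and 222 in GFP low. Cells with none of them that passed the Atoh1 gate are called Atoh1-only and numbered 432 in GFP high and 31 in GFP low. Another 533 and 201 cells passed no gate, and 74 and 75 passed more than 1 of the first 3. The states are ranges of 1 gene each, not cell types. For Ocm, Cib3 and Bmp2, the other hair cells of a comparison are those that did not pass that gene's gate. Cells that passed it along with another of the first 3 are on neither side.

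Stretches upstream of the RefSeq starts of 3 members are shown because Chrna9 and Chrna10 encode subunits of the same receptor but had different orders of level over libraries, and because Kcna10 had the widest range over hair cells. All are on the mouse build GRCm38.p6 as given by RefSeq, 5′ to 3′ along the gene's strand. They hold no annotated exon. Those of Kcna10 and Chrna10 end where the gene begins in GENCODE M21, while that of Chrna9 lies inside the longer gene annotated there, which begins further upstream. Capitals mark matches to CANNTG, the E-box core bound by basic helix-loop-helix factors, the family of Atoh1.
Chrna9, plus strand, chr5:65966874-65967123: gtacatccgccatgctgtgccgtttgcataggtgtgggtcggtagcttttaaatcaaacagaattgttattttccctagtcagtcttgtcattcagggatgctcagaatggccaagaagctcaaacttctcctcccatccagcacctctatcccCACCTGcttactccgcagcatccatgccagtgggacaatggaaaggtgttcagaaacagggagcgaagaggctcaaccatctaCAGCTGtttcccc
Chrna10, minus strand, chr7:102116829-102116963: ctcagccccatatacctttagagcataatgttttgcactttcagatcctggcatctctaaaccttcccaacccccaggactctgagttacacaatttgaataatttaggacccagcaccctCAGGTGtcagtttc
Kcna10, plus strand, chr3:107182893-107183055: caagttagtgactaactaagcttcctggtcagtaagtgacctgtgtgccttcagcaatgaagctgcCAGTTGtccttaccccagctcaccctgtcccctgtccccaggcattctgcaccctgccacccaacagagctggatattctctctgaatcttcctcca
In the 250 bases before the RefSeq start, Chrna9 had 2 matches to CANNTG, Chrna10 had 2, the second running past the stretch shown, and Kcna10 had 1, counting both strands at once because the pattern is its own reverse complement. The same pattern was in 66.2% of 32851 promoter windows of that length. The narrower CAGCTG was in 1 of the 3 windows, that of Chrna9, and in 13% of all windows, and CAGATG, searched on both strands, was in none of the 3 and in 14.4% of all. These are letters in a window, not sites.

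Of the 7 genes, 4 were higher in hair cells than in the other cells of each library. A gene was tested where it reached 10 UMIs per 1000000 (CPM) in either group, and called higher or lower where the ratio of CPM reached 2 in that direction with an exact 95% counting interval that left out 1. Kcna10, Kcnmb2, Chrna9 and Chrna10 passed this in all 4 libraries, of 5 members tested in all of them, beside 9.9% of 9146 genes called higher and 9.83% called lower by the same rule. Kcnab1 was called higher in both day 21 sorts and at day 20, and was under 10 CPM in hair cells and other cells of day 16. In single libraries, 15.5% of genes were called higher in GFP high, 16.5% in GFP low and 21.0% at day 20. Without the 10 cells with most UMIs of the gene on each side, the day 20 ratios of Kcnmb2 and Kcnab1 were 1.43 and 4.22, neither called, against 3.33 and 11.6 with them. That of Kcnab1 was still past the limit of 2. At a higher hair threshold the Kcnmb2 ratio in GFP high was 1.98, against 3.49.

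Kcna10 was at 45.4 CPM in hair cells of day 16, 286 at day 20, 409 in the GFP high sort and 807 in GFP low. In the other cells of the same libraries it was at 0.135, 0.303, 5.34 and 5.1 CPM. Hair cell levels lay far above the others in each library. With every cell thinned to 5000 UMIs, Kcna10 was detected in 61.7% of 2229 hair cells of GFP high (95% Clopper-Pearson interval 59.7 to 63.8), against 1.76% of 397 cells gated by supporting cell markers. In GFP low the shares were 85% of hair cells and 1.26% of supporting-gated cells. Unthinned shares in GFP high were 89.6% and 7.67%, at median depths of 30575 and 25132.5 UMIs.

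Chrna9 was at 137 CPM in hair cells of day 16, 116 at day 20, 98 in the GFP high sort and 59.9 in GFP low. In other cells it was at 1.86, 0.328, 4.2 and 0.893 CPM. Chrna10 was at 62.5, 52.5, 123 and 129 CPM in hair cells and at 1.12, 1.31, 4.96 and 1.7 CPM in other cells. Both receptor subunits were thus low outside the hair cell gate in each library, and their order over libraries differed: Chrna9 was highest at day 16, Chrna10 at day 21. Thinned to 5000 UMIs, Chrna9 was detected in 33.9% of hair cells and 0.756% of supporting-gated cells of GFP high, and Chrna10 in 42.4% and 0.756%.

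Kcnmb2 was at 77 CPM in hair cells of day 16, 36.5 at day 20, 53.5 in the GFP high sort and 77.2 in GFP low, against 24.5, 10.9, 15.3 and 9.45 CPM in other cells. Its other cells were not uniform. In Ccer2-rich cells, those with 200 or more Ccer2 UMIs per 10000, Kcnmb2 was at 50.1, 45.6, 128 and 71.5 CPM over the libraries in the same order, and it was called higher there than in the remaining cells outside the hair gate in each library (ratios of 2.41, 13.2, 11.3 and 9.22). The percent of genes called higher in that comparison was 7.89, 11.3, 11.6 and 9.08. Neuron-gated cells held 34.9, 11.8, 56.5 and 18.2 CPM of Kcnmb2. That was above the hair cells in value in GFP high and below them in each other library. Supporting-gated cells held 0.312 CPM in GFP high and 0.599 in GFP low.

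Kcnab1 was at 5.82 CPM in hair cells of day 16, 31 at day 20, 67.5 in the GFP high sort and 194 in GFP low, with other cells between 2.67 and 4.6 CPM. Kcnma1 was at 13, 17.3, 36 and 74.9 CPM in hair cells and at 16.6, 10, 4.22 and 15.9 CPM in other cells. Kcnma1 was called higher in hair cells of both day 21 libraries (ratios of 8.53 in GFP high and 4.71 in GFP low), beside 15.5% and 16.5% of genes. Its ratios of 0.78 at day 16 and 1.73 at day 20 were inside the limit. Cells gated by neuron markers held 32, 36.3, 13.8 and 39.4 CPM of Kcnma1, a channel also known from neurons.

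Kcnn2 was low throughout. It was at 4.88 CPM in hair cells of day 16, 9.12 at day 20, 7.11 in the GFP high sort and 9.17 in GFP low, under the 10 CPM needed for a test. Neuron-gated cells held 13.9, 11.5, 14.4 and 11.9 CPM, above the hair cells of the same library in value, and supporting-gated cells of day 21 held 1.02 CPM in GFP high and 0.958 in GFP low. In hair cells thinned to 10000 UMIs it was detected in 6.82% of 2213 cells of GFP high and 8.81% of 738 cells of GFP low.

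**Figure D1:**
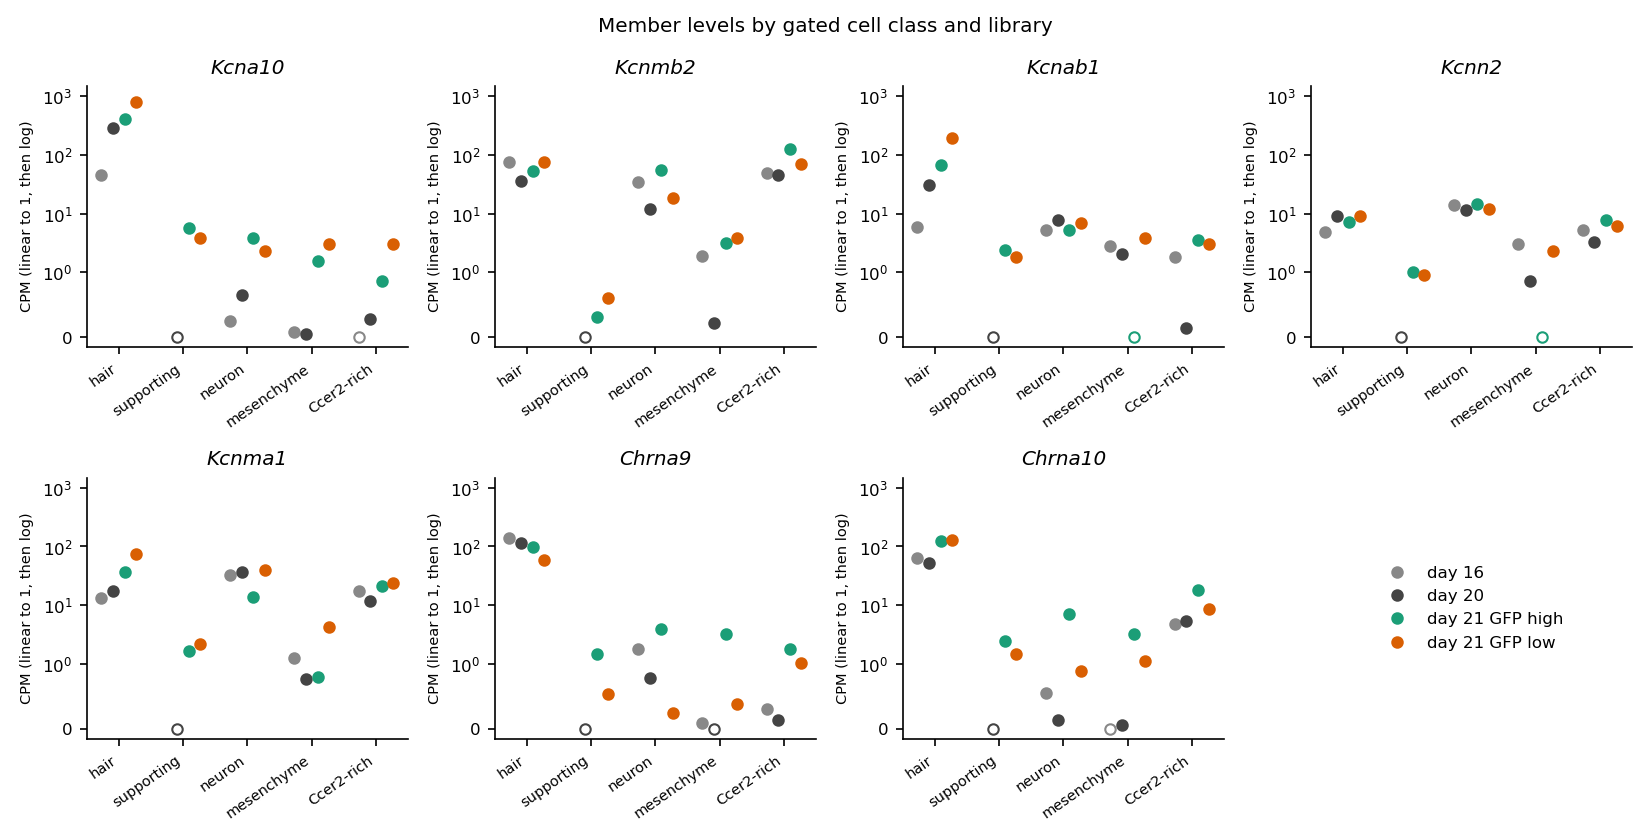
Level of each gene (CPM, linear up to 1 and logarithmic above) in cells gated as hair, supporting, neuron and mesenchyme cells and in Ccer2-rich cells, 1 point a library and open points at 0. Kcna10, Chrna9 and Chrna10 are highest in hair cells in each library, while Kcnmb2 reaches 128 CPM in Ccer2-rich cells and Kcnn2 is highest in neuron-gated cells.

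Of the 7 genes, 3 lie on the same chromosome. In GENCODE M21 on GRCm38, Kcna10 lies on chromosome 3 from 107183056 to 107195721, Kcnmb2 on chromosome 3 from 31902507 to 32200180 and Kcnab1 on chromosome 3 from 65109384 to 65378223, each on the plus strand. Kcnn2 lies on chromosome 18 from 45268860 to 45686024 and Chrna9 on chromosome 5 from 65934921 to 65977326, both on the plus strand. Kcnma1 lies on chromosome 14 from 23289431 to 24014491 and Chrna10 on chromosome 7 from 102111266 to 102116828, both on the minus strand. All are protein coding. Exons of Chrna10 overlap those of Art1 on the opposite strand, and Art1 was counted at 30.8 CPM in hair cells of day 16, 33.8 at day 20, 55.3 in the GFP high sort and 22.1 in GFP low. The strand setting of the counting is not given in the sources used here, so reads of Chrna10 and Art1 there cannot be told apart. Antisense genes that overlap exons of Kcnab1, Kcnn2 and Kcnma1 were at 0.56 CPM or less in hair cells.

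Between the day 21 sorts, the receptor subunits were higher in GFP high than in GFP low over all cells, and Kcnab1 and Kcnma1 were lower in GFP high within hair cells. Over all cells Chrna9 was at 68.1 CPM in GFP high and 13.4 in GFP low (ratio 5.07, interval 4.77 to 5.39), and Chrna10 at 85.3 and 28.7 CPM (2.98, 2.85 to 3.11). These were 2 of 6 members tested, beside 6.91% of 10537 genes called higher and 7.67% called lower, and no member was called lower. Kcna10 had a ratio of 1.6, Kcnmb2 1.73, Kcnab1 1.05 and Kcnma1 0.911. The share of hair cells also differed, at 65.4% in GFP high and 20.9% in GFP low, and its part in these ratios was not tested.

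Within hair cells the order of the genes differed. Kcnab1 was at 67.5 CPM in GFP high and 194 in GFP low (ratio 0.348, 0.333 to 0.363), and Kcnma1 at 36 and 74.9 CPM (0.481, 0.451 to 0.513). These were 2 of 6 members tested, beside 1.82% of 9467 genes called lower and 4.5% called higher, and no member was called higher. Kcna10, at 409 CPM in GFP high and 807 in GFP low, had a ratio of 0.507 and missed the limit. Chrna9 had a ratio of 1.64 and Chrna10 of 0.956, both within the limit. Scaled by the mean of each cell's CPM the Kcnma1 ratio was 0.522, and with thinned cells 0.545, so its call ended under both. Kcnmb2 had a ratio of 0.693, and Kcnn2, at 7.11 CPM in GFP high and 9.17 in GFP low, was not tested.

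Within 4 of the hair cell states the ratios of Kcnab1 and Kcnma1 were closer to 1 than over all hair cells. The states held different shares of the hair cells of each sort, and the part of this in the ratios was not tested. Kcnab1 had a ratio of 0.822 in Ocm-gated cells, 0.43 in Cib3-gated, 0.933 in Bmp2-gated and 0.543 in cells of no gate, and was called lower in Cib3-gated cells, beside 1.08% of 9389 genes lower and 3.64% higher. Kcnma1 had 0.794, 0.611, 0.91 and 0.619 in the same order, none past the limit. Bmp2-gated cells, 59 in GFP high and 222 in GFP low, had counting intervals of 0.849 to 1.02 for Kcnab1 and 0.764 to 1.08 for Kcnma1. Chrna9 was higher in GFP high in value in each of these states, with ratios of 1.87, 1.45, 2.03 and 1.81, and of 1.96 in Atoh1-only cells. Its ratio in Bmp2-gated cells passed the limit, beside 3.92% of 9310 genes higher and 0.902% lower. In Ocm-gated cells no member was called, beside 3.11% of genes higher and 2.6% lower. In Atoh1-only cells, 31 of them in GFP low, Kcnmb2 was called higher (34.9 and 6.12 CPM, ratio 5.71), on 5 UMIs in GFP low, beside 4.0% of genes higher and 2.1% lower. In these cells Kcnab1 was at 4.65 CPM in GFP high and 6.12 in GFP low. Kcnma1 was at 9.44 and 6.12 CPM, the other way in value, and both genes had 5 UMIs in GFP low.

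**Figure D2:**
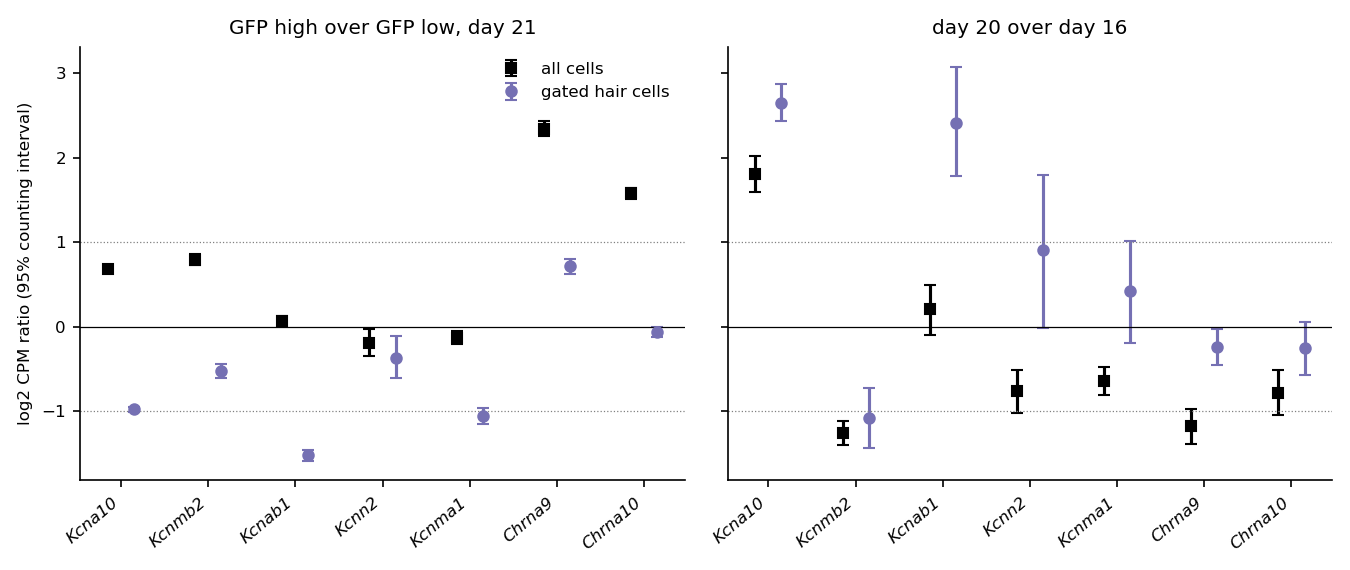
Log2 CPM ratio of each gene with its exact 95% counting interval, for GFP high over GFP low (left) and day 20 over day 16 (right), over all cells (squares) and gated hair cells (circles); dotted lines mark a ratio of 2 either way. On the left Chrna9 and Chrna10 lie above the upper line over all cells and inside both lines in hair cells, and Kcnab1 has a ratio of 0.348 in hair cells.

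Between day 20 and day 16, 2 genes were higher and 1 was lower in hair cells of day 20. Kcna10 was at 286 CPM at day 20 and 45.4 at day 16 (ratio 6.28, 5.41 to 7.32), and Kcnab1 at 31 and 5.82 CPM (5.33, 3.44 to 8.43). Kcnmb2 was at 36.5 and 77 CPM (0.474, 0.368 to 0.604). Of 6 members tested this was beside 4.87% of 9351 genes called higher and 10.6% called lower. Chrna9 was at 116 and 137 CPM (0.846, 0.731 to 0.978) and Chrna10 at 52.5 and 62.5 CPM (0.839, 0.673 to 1.04), both within the limit. Kcnma1, at 17.3 and 13 CPM, had a ratio of 1.34. The hair cells of the days were not the same mix, since 40 of 125 were Atoh1-high at day 20 and 94 of 152 at day 16. Kcna10 was at 42.1 and 10.3 CPM in the Atoh1-high cells of day 20 and day 16, and at 441 and 103 CPM in the rest, higher at day 20 in both. Kcnab1 was at 1.17 and 3.03 CPM in the Atoh1-high cells, on 1 and 10 UMIs, and at 50.1 and 10.4 CPM in the rest. The rest included 4 Bmp2-gated cells at day 20 and 0 at day 16. Those 4 cells held 26 of the 67 Kcnab1 UMIs and 115 of the 590 Kcna10 UMIs of the rest at day 20. The part of this in the ratios was not tested.

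These sums rest on few cells. Of the Kcna10 UMIs in hair cells, 38.5% at day 20 and 65.7% at day 16 came from the 10 cells with most, and of the Kcnab1 UMIs 76.5% and 71%. Without the 10 cells with most UMIs of the gene on each side, the Kcnab1 ratio was 4.44 and no longer called. The Kcnmb2 call ended under 5 of the alternatives, with ratios of 0.503 to 0.53. Over all cells Kcna10 was higher at day 20 (15.2 and 4.36 CPM, ratio 3.49) and Kcnmb2 (12.3 and 29.4 CPM, 0.418) and Chrna9 (6.38 and 14.5 CPM, 0.441) were lower, of 4 members tested, beside 4.99% of 9890 genes called higher and 6.74% called lower. Each of these 3 calls ended under at least 1 alternative, with ratios of 3.29 to 6.0 for Kcna10, 0.515 and 0.56 for Kcnmb2 and 0.495 to 0.503 for Chrna9. The labels name a GFP gate for day 21 alone, and hair cells were 2.9% of cells at day 20 and 4.53% at day 16.

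**Figure D3:**
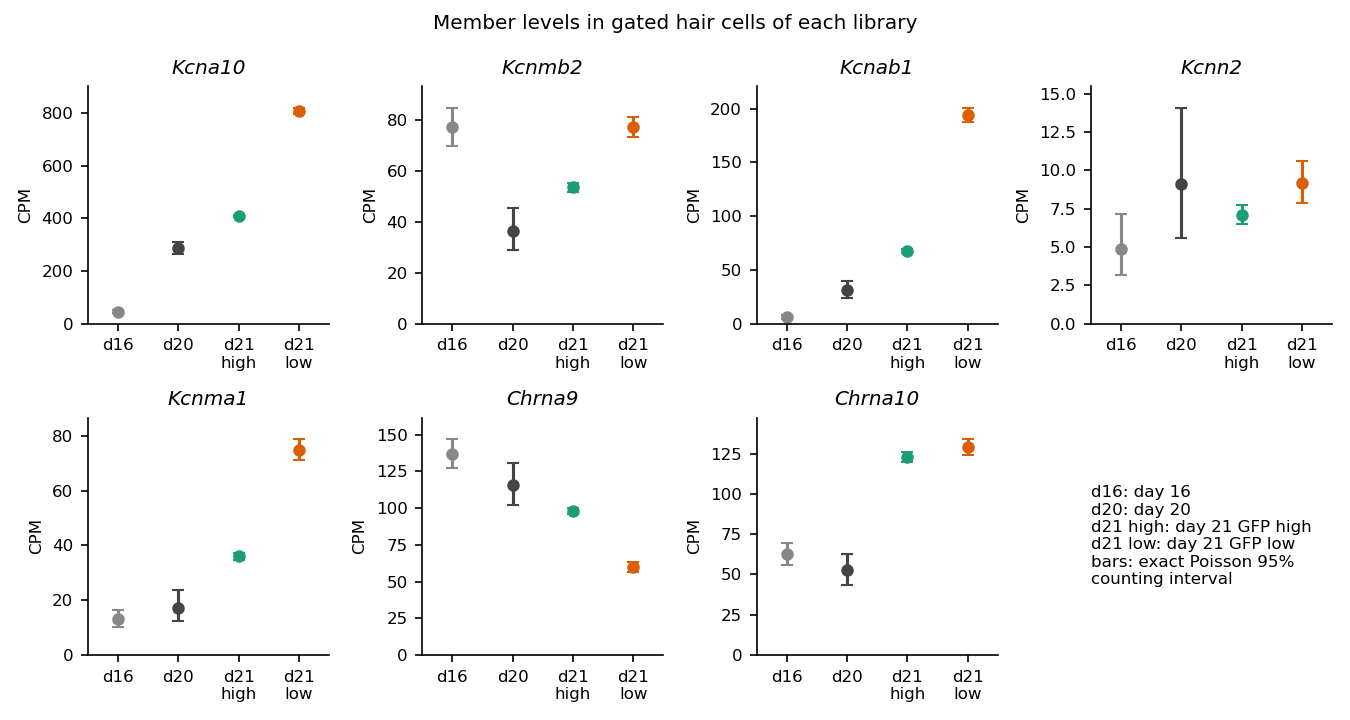
Level of each gene (CPM) in gated hair cells of the 4 libraries, with exact Poisson 95% counting intervals. Kcna10, Kcnab1 and Kcnma1 are highest in day 21 GFP low (807, 194 and 74.9 CPM), and Chrna9 is highest at day 16 (137 CPM).

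Ocm-gated cells were high in Kcnmb2 and Kcnn2. In Ocm-gated cells Kcnmb2 was at 262 CPM in GFP high and 305 in GFP low, against 32.7 and 64.5 CPM in the other hair cells (ratios 8 and 4.72). Kcnn2 was at 25.2 CPM in Ocm-gated cells of GFP high and 23 in GFP low, against 5.36 and 8.43 CPM in the others (4.7 and 2.73). These 2 of 7 members were called higher in both sorts, beside 2.06% of 9011 genes higher and 3.24% lower, and no member was called lower. Kcnab1, at 286 and 348 CPM in Ocm-gated cells against 43.8 and 184 CPM in others, passed in GFP high alone (6.54 and 1.89). Chrna10, at 264 and 157 CPM against 108 and 126 CPM, also passed in GFP high alone (2.43 and 1.25). In GFP high alone 5.31% of genes were called higher and 9.28% lower, and in GFP low alone 3.44% and 5.47%. Kcna10 had ratios of 0.56 and 0.522, just inside the limit, so Ocm-gated cells held 234 and 427 CPM of it against 419 and 818 CPM in others.

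The Ocm-gated cells of GFP low numbered 27. Of these, 11 held any of their 19 Kcnn2 UMIs, and 94.7% of the UMIs were in 10 cells. Without the 10 cells with most Kcnn2 UMIs on each side, the ratio there was 0.274, against 2.73. A low ratio was thus fixed in advance and cannot show a reversal. Thinned to 5000 UMIs the Kcnn2 ratio was 2.09 and no longer called. In GFP high, with 170 Ocm-gated cells, the call remained under each alternative run. Thinned to 10000 UMIs, Kcnn2 was detected in 23.2% of Ocm-gated cells of GFP high (17.1 to 30.3), against 3.63% of Cib3-gated cells (2.54 to 5.01).

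Cib3-gated cells held little Kcnmb2. It was at 9.51 CPM in GFP high and 4.6 in GFP low, against 84.3 and 108 CPM in the other hair cells (ratios 0.113 and 0.0427). Kcnab1 was at 25.1 and 58.3 CPM, against 92.4 and 241 CPM (0.272 and 0.242). These 2 of 6 members were called lower in both sorts, beside 1.44% of 9011 genes lower and 1.72% higher, and no member was called higher. Kcna10 was at 619 and 949 CPM in Cib3-gated cells, against 220 and 658 CPM in others, and passed in GFP high alone (2.81 and 1.44). In GFP high alone 2.28% of genes were called higher and 2.75% lower, and in GFP low alone 4.33% and 3.8%. With Leiden clusters in place of gates the Kcna10 ratio in GFP high was 1.19. Chrna9 had ratios of 1.02 and 1.3, and Chrna10 of 0.799 and 0.944, so both receptor subunits were inside the limit. Kcnn2 had ratios of 0.41, not tested, and 0.356. At day 20, where 27 cells were Cib3-gated, Kcnmb2 was at 10.7 CPM against 43.5 in other hair cells (0.247), and Kcnab1 at 10.7 against 36.5 (0.294). The 5 Kcnmb2 UMIs of these Cib3-gated cells were all in 1 cell, and the 5 of Kcnab1 in 4 cells. Unlike at day 21, Chrna10 was also called lower there, at 25.7 against 59.7 CPM (0.431), and 2.45% of 9023 genes were called lower.

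Thinned to 10000 UMIs, Kcnmb2 was detected in 85.1% of Ocm-gated cells of GFP high, 50.8% of Bmp2-gated and 6.53% of Cib3-gated cells. In GFP low the shares were 77.8%, 53.6% and 3.85%. The Ocm-gated share was the highest of the 3 in both sorts and the Cib3-gated share the lowest. Direct ratios of Ocm-gated over Cib3-gated cells were 27.5 (24.2 to 31.3) in GFP high and 66.2 (43.8 to 104) in GFP low, with 6.3% and 6.42% of genes called higher.

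Bmp2-gated cells were high in both accessory subunits. Kcnmb2 was at 121 CPM in GFP high and 132 in GFP low, against 50.1 and 45.2 CPM in other hair cells (ratios 2.42 and 2.92). Kcnab1 was at 314 and 337 CPM, against 55.5 and 105 CPM (5.67 and 3.22), and Kcnn2 at 16.5 and 14.3 CPM, against 6.75 and 6.43 CPM (2.44 and 2.22). These 3 of 7 members were called higher in both sorts, beside 1.94% of 9073 genes higher and 3.24% lower, and no member was called lower. Kcna10 (849 and 910 CPM, ratios 2.26 and 1.4) and Kcnma1 (92 and 101 CPM, 2.79 and 1.74) passed in GFP high alone, where 4.5% of genes were called higher and 6.11% lower, beside 2.52% and 5.2% in GFP low alone. With lower state thresholds, or without the 10 cells with most UMIs of a gene, Kcnab1 alone of the 3 remained called in both sorts. The Kcnn2 call also ended in GFP low under 4 other alternatives, with ratios of 1.75 to 1.97. Chrna9 was at 106 and 52.4 CPM in Bmp2-gated cells, with ratios of 1.09 and 0.905.

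In order of level, Kcnmb2 ran Ocm-gated, Bmp2-gated, cells of no gate, Atoh1-only, Cib3-gated in GFP high (262, 121, 60.5, 34.9 and 9.51 CPM), with no neighbouring intervals that overlap. In GFP low Atoh1-only (6.12) and Cib3-gated (4.6) cells were not told apart by their intervals. Kcnab1 had Bmp2-gated and Ocm-gated cells together at the top in both sorts (314 and 286 CPM in GFP high, 337 and 348 CPM in GFP low) and Atoh1-only cells at the bottom (4.65 and 6.12 CPM). Over these 5 states Chrna9 was at 82.4 to 127 CPM in GFP high and 45.4 to 68.3 CPM in GFP low, and in cells that passed several gates it was at 103 and 95 CPM.

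**Figure D4:**
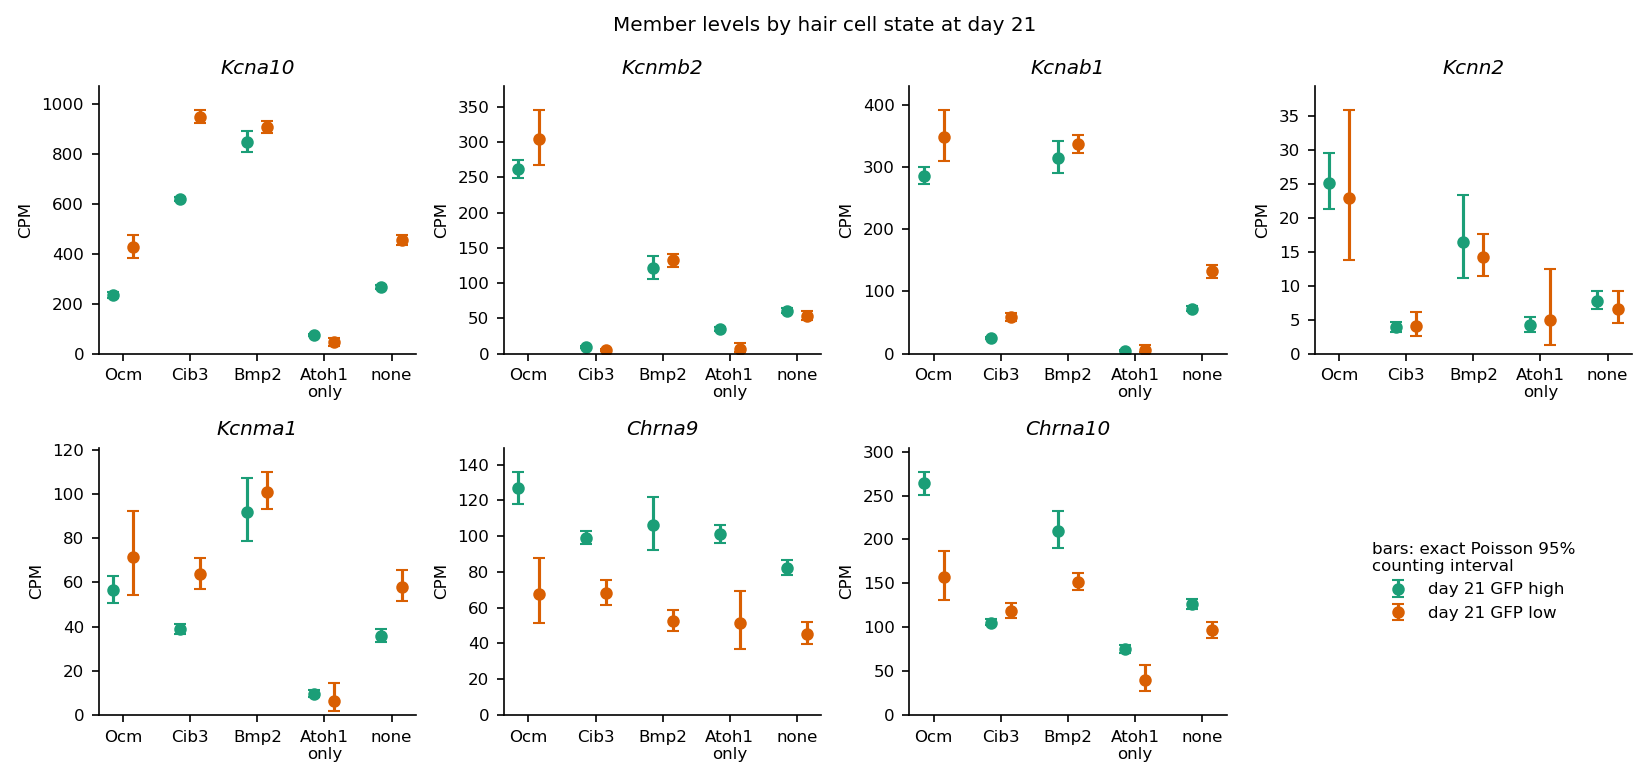
Level of each gene (CPM) by hair cell state in GFP high (left point of each pair) and GFP low (right point), with exact Poisson 95% counting intervals. Kcnmb2 is highest in Ocm-gated cells (262 and 305 CPM) and low in Cib3-gated cells (9.51 and 4.6 CPM), while Chrna9 is higher in value in GFP high than in GFP low in each state.

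Kcna10, Kcnab1, Kcnma1 and Kcnmb2 were lower in hair cells with more Atoh1, while Chrna9 was within the limit. Atoh1 is known to fall as hair cells mature. The Atoh1-high cells were also another mix of states. In GFP high, 2 Ocm-gated cells were Atoh1-high and 168 Atoh1-low, and 1 Bmp2-gated cell was Atoh1-high and 58 Atoh1-low. The part of this mix in the ratios was not tested. In cells that passed the Atoh1 gate, whatever their other gates (632 in GFP high and 33 in GFP low), Kcna10 was at 95.7 and 53.8 CPM, against 555 and 843 CPM in the rest of the hair cells (ratios 0.173 and 0.0638). Kcnab1 was at 5.12 and 5.61 CPM, against 96.5 and 203 CPM (0.053 and 0.0276), Kcnma1 at 9.28 and 11.2 CPM, against 48.4 and 77.9 CPM (0.192 and 0.144), and Kcnmb2 at 28.4 and 6.73 CPM, against 65.1 and 80.5 CPM (0.436 and 0.0835). These 4 of 6 members were called lower in both sorts, beside 5.57% of 9360 genes lower and 4.34% higher, and no member was called higher. Kcnn2 was under 10 CPM in each group and was not tested. The Atoh1-high sums of GFP low held 6 UMIs of Kcnmb2 and 5 of Kcnab1. In cells thinned to 5000 UMIs the Kcnmb2 ratio in GFP high was 0.51, so its call ended there, and in GFP low the ratios of Kcnmb2 and Kcnab1 were nearer to 1 than in unthinned cells and still called. Thinned Atoh1-high cells of GFP low had a UMI of Kcnmb2 in 6.25% (0.766 to 20.8), against 22.7% of the rest (19.7 to 25.9), and of Kcnab1 in 6.25% (0.766 to 20.8), against 48.1% (44.4 to 51.8). Chrna9 was at 118 and 54.9 CPM in Atoh1-high cells, against 88.6 and 60.1 CPM in the rest (1.33 and 0.913). Chrna10 was at 77.2 and 42.6 CPM, against 144 and 133 CPM (0.535 and 0.321), and passed the limit in GFP low alone, where 12.6% of genes were called lower and 11.9% higher, beside 6.39% and 5.09% in GFP high alone.

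At the earlier days 3 of these genes were lower with Atoh1. Kcna10 in Atoh1-high hair cells was at 42.1 CPM against 441 in the rest at day 20 (ratio 0.0955), and at 10.3 against 103 at day 16 (0.1). Kcnab1 had ratios of 0.0234 at day 20 (0.000583 to 0.135), on 1 UMI in the Atoh1-high cells, and 0.291 at day 16. Of the 67 Kcnab1 UMIs in the rest at day 20, 77.6% came from 10 cells. Kcnma1 had ratios of 0.353 and 0.306. These 3 genes were called lower on both days, beside 7.87% of genes at day 20 and 4.02% at day 16. Kcnmb2 (0.488) and Chrna10 (0.435) were called lower at day 20 alone. Chrna9 had ratios of 1.02 at day 20 and 1.14 at day 16. Among the Cib3-gated cells of GFP high alone, 197 Atoh1-high and 776 Atoh1-low, Kcna10 was at 144 against 768 CPM (0.188), Kcnab1 at 3.05 against 32 (0.0953) and Kcnma1 at 8.47 against 48.5 (0.174), beside 5.82% of 9515 genes called lower. Chrna9 was at 156 against 80.9 CPM there (1.93, 1.79 to 2.08), and Kcnmb2 was at 8.88 against 9.71.

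Ordered by Atoh1 level in GFP high, in bins of 0, over 0 to 1, over 1 to 2, over 2 to 4 and over 4 UMIs per 10000 (832, 529, 246, 372 and 262 cells), Kcna10 ran 759, 498, 156, 110 and 75.3 CPM. Kcnab1 ran 128, 97.9, 15.8, 6.78 and 2.67 CPM, and Kcnma1 58.8, 51.6, 16.7, 10.6 and 7.38 CPM. All 3 stepped down most between the bins of over 0 to 1 and over 1 to 2. Chrna10 ran 161, 152, 89.8, 79.9 and 73.4 CPM, and Chrna9 ran the other way, 81.6, 88.4, 107, 119 and 117 CPM. Kcnn2 ran 9.61, 7.89, 7.08, 4.81 and 2.89 CPM. The state genes differed over the bins too. From the bin of 0 to that of over 4, Ocm went from 235 to 1.93 CPM, Cib3 from 782 to 169 and Bmp2 from 86.4 to 2.35. In GFP low, with 585, 130 and 20 cells in the lower 3 bins, Kcna10 was at 896, 711 and 277 CPM and Chrna9 at 62.6, 49.7 and 61.5 CPM, so the Chrna9 order of GFP high was not seen there.

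**Figure D5:**
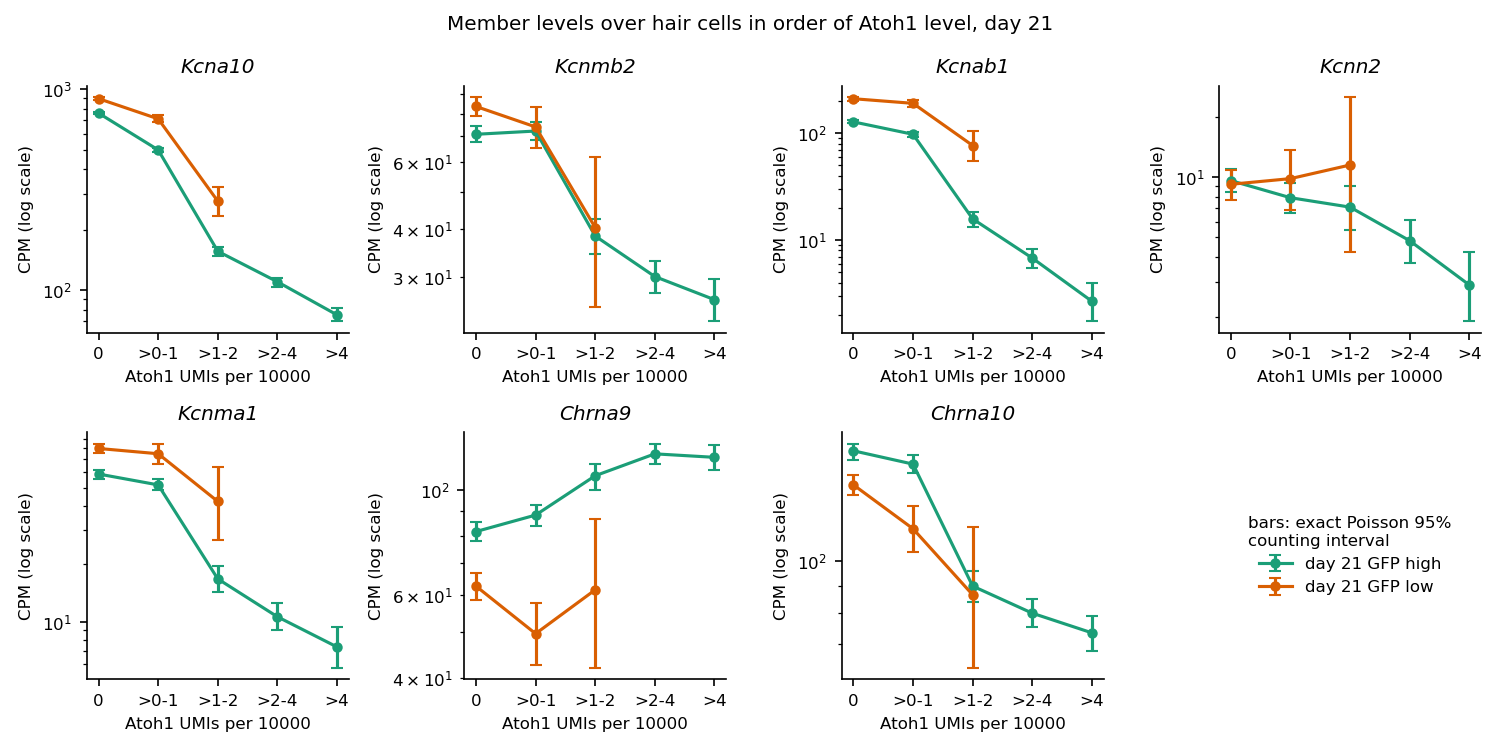
Level of each gene (CPM, log scale) in hair cells binned by Atoh1 UMIs per 10000, for GFP high and GFP low, with exact Poisson 95% counting intervals; bins under 20 cells are not drawn. Kcna10, Kcnab1 and Kcnma1 descend in both sorts, and Chrna9 is 81.6 CPM in the lowest and 117 CPM in the highest bin of GFP high.

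Other features moved with the states. The 7 Merkel cell markers (Ccer2, Krt20, Piezo2, Krt8, Krt18, Isl1 and Sox2) summed to 6890 CPM in Atoh1-only cells of GFP high and 5530 in GFP low, to 3740 and 1270 CPM in Cib3-gated cells, to 760 and 719 CPM in Bmp2-gated cells and to 460 and 398 CPM in Ocm-gated cells. Most of each sum in Atoh1-only cells was Ccer2 (6260 and 4800 CPM), followed by Sox2 (453 and 531 CPM). There Krt18 was at 65.6 and 130 CPM, Krt8 at 51.7 and 53.9, Isl1 at 45.4 and 19.6, Piezo2 at 8.67 and 0, and Krt20 at 0.701 and 0. Krt18 was at 34.1 and 57.2 CPM in Cib3-gated, 24.8 and 26.6 in Ocm-gated and 172 and 216 in Bmp2-gated cells. Neuron markers summed to 654 and 361 CPM in Atoh1-only cells and to 1090 to 1470 CPM in the 3 gated states. The median mitochondrial share was 3.5% and 0.77% in Atoh1-only cells, against 9.53% and 10.5% in Ocm-gated and 10.2% and 10.9% in Bmp2-gated cells. The part of these in the ratios above was not tested. Without hair cells that passed a second class gate, each member called lower in both sorts with Atoh1, and each called in both sorts with Ocm and Cib3, was still called, while Kcnn2 in Bmp2-gated cells of GFP low was not (1.84).

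Cell by cell, Kcnmb2 and Kcnab1 had the highest correlation of the 21 pairs of members in both sorts. At 10000 UMIs a cell Kcnmb2 and Kcnab1 were both detected in 12.7% of hair cells of GFP high, where the product of their shares was 6.17%, and in 27.2% of GFP low, where it was 18.2%. The correlation of logged counts over cells was 0.45 over 2213 cells and 0.44 over 738. Within Ocm-gated cells of GFP high both were in 72%, with a product of 70.4%, so within that state they were found together about as often as their shares give. Chrna9 and Chrna10, which form 1 receptor, were both detected in 34.1% of hair cells of GFP high, with a product of 32.3%, and in 27.5% of GFP low, with 23.5% (correlations 0.14 and 0.2). Cells of 1 library share their preparation, and depth limits detection, so these are descriptions.

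Of the members, Kcna10 had the largest variance over mean across hair cells in both sorts, and also the highest mean (4.62 and 8.2 UMIs). This factor grows with the mean where cells differ in level, so it does not rank the members by spread. At the same depth a hair cell of GFP high held 0 to 43 Kcna10 UMIs, with a median of 2 and a variance 6.73 times the mean, and a cell of GFP low 0 to 46, with a median of 7 and 5.59 times the mean. Kcnmb2 had 3.1 and 2.9 times, Kcnab1 3.3 and 2.44 times, and Chrna9 1.72 and 2.02 times. Kcnn2 had 1.12 and 1.08 times. Its means were 0.075 and 0.0949 UMIs, where a factor close to that of counting alone is nearly fixed in advance. It cannot show that Kcnn2 was even over cells. Within Ocm-gated cells of GFP high the factor was 1.61 for Kcnmb2 and 1.89 for Kcnab1, against 3.1 and 3.3 over all hair cells, while within Cib3-gated cells Kcna10 had 4.83.

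Over 17 sums of hair cell state and library with 20 or more cells, the pattern of Kcnab1 was most like that of Kcnma1 among the members (Pearson correlation of log2(CPM + 1) 0.95), then Kcna10 like Kcnma1 (0.9). Chrna9 and Chrna10 had -0.16. Among 5342 genes the nearest to Kcna10 were Espn, Prxl2a, Ephx1, Plppr5 and Rrp12 (0.966 to 0.956), of which Espn encodes an actin bundler of stereocilia. Among the 5 nearest to Kcnab1 were Myh13, Efr3a, Rxra and Hsd17b7 (0.982 to 0.976), and the 5 nearest to Kcnma1 were Hsd17b7, Rxra, Myh13, Plxna4 and Atp2b2 (0.988 to 0.98), the last a calcium pump of hair bundles. Kcnmb2 was nearest to Isl1, Rims3, Prkag2, Wasl and Atp5o (0.916 to 0.897) and the 5 nearest to Kcnn2 included Cyth3, Arhgap10, Nell2 and Myom1 (0.938 to 0.885). Chrna9 was nearest to Gdpd1, Hmg20b, Upf3a, BC030867 and Slc25a4 (0.909 to 0.791) and the 5 nearest to Chrna10 included Lrrk1, Acp2, Bag6 and Agtpbp1 (0.976 to 0.955). The sums share 4 libraries, and sums of 1 library share its preparation.

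Among 35 other potassium channel genes, 9 were tested in all 4 libraries for hair cells over other cells, 4 were higher, among them Kcnh7 and Kcns3, and 1 was lower (Kcnk2). Their median log2 ratio was 1.18, against 0.01 over all genes tested, of which 9.9% were called higher and 9.83% lower. Kcnh7 was at 62 CPM in hair cells of GFP high and 39.7 in GFP low, and Kcna2, a Shaker-type channel like Kcna10, at 17.6 and 73. Kcna2 was lower in hair cells of GFP high than of GFP low (ratio 0.242), along with Kcnj13 and Kcnj16, while Kcnk1 and Kcnab2 were higher, out of 14 tested. Among all genes 1.82% were called lower and 4.5% higher there.

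By state these genes divided along other lines than the members. Of 12 tested in Cib3-gated cells, Kcnmb4, another BK accessory subunit, was among those higher, at 55.7 CPM in GFP high and 89.5 in GFP low against 15.4 and 22.4 CPM in other hair cells, while Kcnk1 was lower. Kcnmb4 was lower in Bmp2-gated cells, at 3.19 and 6.45 against 33.4 and 61.6 CPM, and in Ocm-gated cells, at 5.44 and 8.47 against 35.1 and 42 CPM. In these 3 states Kcnmb4 was higher where Kcnmb2 was lower. Of 14 tested in Ocm-gated cells, 1 was higher (Hcn2) and 3 were lower, among them Kcna2 and Kcnmb4. Of 13 in Bmp2-gated cells, Kcnj13, Kcnj16 and Kcna2 were higher, and 2 were lower, Kcnmb4 among them. With Atoh1, 2 were higher, among them Kcnk1, and 4 lower, among them Kcna2 and Kcnmb4, of 13 tested. The shares of all genes called higher and lower were 1.72% and 1.44% for Cib3 and 2.06% and 3.24% for Ocm. They were 1.94% and 3.24% for Bmp2 and 4.34% and 5.57% for Atoh1. The median log2 ratios of the list were 0.39 for Cib3, 0.1 for Ocm, -0.06 for Bmp2 and -0.32 for Atoh1, against -0.04 to 0 over all genes.

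Among 30 other genes of the efferent synapse and nicotinic receptors, 7 were tested in all 4 libraries, 4 were higher in hair cells (Chrna1, Cacna1d, Ryr2 and Calca) and 1 was lower (Tmem35a), with a median log2 ratio of 2.1 against 0.01. This was beside 9.9% of all genes called higher and 9.83% called lower. Cacna1d, the calcium channel of the hair cell ribbon synapse, was at 107 CPM in hair cells of GFP high and 120 in GFP low. Chrng, a subunit of the fetal muscle receptor, was at 53.9 and 6.52 CPM (ratio 8.27), and Chrna1, the muscle receptor's alpha subunit, at 27.4 and 46.8 CPM. The 4 muscle markers Acta1, Mylpf, Myog and Tnnt3 summed to 9.75 to 13.3 CPM in hair cell states of GFP high and to 9.8 to 16.1 CPM in those of GFP low, apart from 272 CPM in cells of no gate in GFP low. Chrng was higher in Atoh1-high cells, at 112 and 52.7 CPM against 27.2 and 4.32 CPM, and lower in Bmp2-gated cells, at 0.532 and 0.17 against 56.7 and 10.5 CPM. Ryr2, an intracellular calcium release channel, and Calca, which encodes CGRP, were higher in Ocm-gated and lower in Atoh1-high cells. Calca was also lower in Cib3-gated cells. The median log2 ratios of this list were 0.82 for Ocm, -0.3 for Cib3, 0.32 for Bmp2 and -0.93 for Atoh1, with 7, 7, 8 and 8 genes tested.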

How the data were processed

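Deposited raw UMI counts per gene and barcode were used, made by the authors with Cell Ranger 6.1.2 per the file headers. The submitters' processing notes name Cell Ranger 6.1.0, Seurat 4.0.6 and build mm10. Cells with under 1000 genes or over 15% mitochondrial UMIs were left out, and barcodes with the top Scrublet scores were removed as doublets at 0.8% per 1000 barcodes. Libraries kept 41858201 to 106842179 UMIs. Counts were summed per group of cells and divided by all UMIs to give CPM. Ratio intervals were exact conditional binomial, levels exact Poisson and shares Clopper-Pearson, at 95%, for counting error only. A call in a state needed both day 21 libraries. Thresholds of the other cell classes (10 to 200 UMIs per 10000) were set after seeing the data. The members and lists were chosen with earlier results of these data known. All members were named, with list genes that were called or reached 50 CPM in day 21 hair cells, and the 5 genes nearest each member, except a few genes that the counts include and that are not reported here. The code was tested on simulated data. Python 3.11.15, Scanpy 1.11.5, R 4.3.3 and edgeR 4.0.16 (TMM factors) were used.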

Additional observations from a re-analysis of the deposited data

Results flagged for a closer look

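The ratios below lay on both sides of 1 between libraries or hair cell states. With 1 library a group the difference between them was not tested.

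Kcnn2 in hair cells over other cells had a ratio of 0.628 at day 16, 2.19 at day 20, 1.82 in the GFP high sort and 1.44 in GFP low, all with levels under 10 CPM in hair cells. Kcnma1 in the same comparison had 0.78 at day 16, 1.73 at day 20, 8.53 in the GFP high sort and 4.71 in GFP low. In Cib3-gated over other hair cells Kcnma1 had 1.23 in GFP high and 0.838 in GFP low.

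For GFP high over GFP low within states, Kcna10 had 0.549 in Ocm-gated, 0.652 in Cib3-gated, 0.933 in Bmp2-gated and 0.588 in cells of no gate, against 1.61 in Atoh1-only cells. Kcnmb2 had 0.858 in Ocm-gated cells, 2.07 in Cib3-gated and 5.71 in Atoh1-only cells, the last with 31 cells in GFP low. Chrna10 had 1.68 in Ocm-gated, 1.38 in Bmp2-gated, 1.85 in Atoh1-only and 1.31 in cells of no gate, against 0.887 in Cib3-gated cells.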

How the results depend on the processing

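Of 60 called ratios, 60 kept their call without shared barcodes, with Ccer2 left out of totals or with no minimum CPM, 59 with looser cell filters, 58 with doublets kept or TMM scaling, 55 by the mean of per-cell CPM and 52 in thinned cells, and 47 of 57 did so without the 10 cells with most UMIs of a gene. The count of members higher at day 20 over all cells was 0 in place of 1 by the mean of per-cell CPM, without those 10 cells and in thinned cells. The Kcna10 ratios there, of 3.29 to 6.0, were still past the limit of 2, so that call did not end by the ratio. The count of members lower at day 20 over all cells was 1 in place of 2 with TMM, the mean of per-cell CPM and thinned cells. In hair cells, members higher at day 20 were 1 in place of 2 without the 10 cells, and members lower were 0 in place of 1 with doublets kept, TMM, a lower hair threshold, Leiden clusters or, an alternative added after seeing the data, without cells of a second class. Members lower in GFP high hair cells were 1 in place of 2 by the mean of per-cell CPM and in thinned cells. Without the 10 cells, members higher in Ocm-gated cells were 1 in place of 2, and members lower there were 1 in place of 0 (also 1 with Leiden clusters). The Kcnn2 ratio in GFP low was then 0.274, but 11 of 27 Ocm-gated cells held any Kcnn2 UMI, so a low ratio was fixed in advance. Members higher in Bmp2-gated cells were 1 in place of 3 without the 10 cells and with lower state thresholds. For Kcnmb2 in hair over other cells, the ratio was 1.43 at day 20 without the 10 cells and 1.98 in GFP high at a higher hair threshold. The cause was not tested. TMM scaling moved log2 ratios by up to 0.19. No paired analysis was possible because each group was 1 library. Few hair cells limit days 16 and 20.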
